A study of Arabidopsis thaliana with 9 samples.

Results

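ERF1, ORA59, 4 plant defensin genes (PDF1.2a, PDF1.2b, PDF1.2c, PDF1.3) and the pathogenesis-related genes PR3 and PR4 form the ethylene response factor branch of jasmonate defence in Arabidopsis thaliana. They were taken by their locus identifiers as a named set. The rule uses no values, but the set was chosen with earlier results of these data known. They are 8 of the 33602 genes in the deposited count table. Polyadenylated RNA of whole seedlings was sequenced in 3 groups of 3 libraries, described by the submitters as biological replicates. Col-0 wild type was given ethanol diluted 5000-fold as a mock treatment (mock WT). Further Col-0 seedlings (JA WT) were given jasmonate at 5 µM for 3 h. The lhp1 mutant was given the mock treatment alone (mock lhp1). All seedlings were 6 days old, grown in liquid MS medium of reduced strength with sucrose, and no group was labelled as treated with ethylene. The labels name a single lhp1 line without its allele, the count columns write it as lhp1-3, and jasmonate-treated lhp1 seedlings were not analysed here. In whole-seedling RNA, fewer cells that express a gene and less of its RNA per cell cannot be told apart.

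In Arabidopsis, jasmonate signalling splits into a branch led by MYC2, associated with wounding and insects, and a branch led by ERF1 and ORA59, associated with necrotrophic fungi. The second branch usually needs ethylene as well, because EIN3 and EIL1, the transcription factors at the end of the ethylene pathway, activate ERF1 and ORA59, while JAZ proteins hold EIN3 and EIL1 inactive until jasmonate removes them. ERF1 and ORA59 bind the GCC box in the promoters of defence genes, and the PDF1.2 genes, which encode small antifungal peptides, are the classical readout. PR3 encodes a basic chitinase and PR4 a hevein-like protein with a chitin-binding domain. LHP1 is a chromodomain protein of the Polycomb system, which keeps genes silent through a repressive mark on histone H3.

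The upstream sequences are shown first because ERF1 and ORA59 bind a promoter element, the GCC box. The GCC box was searched as GCCGCC and the G box, the core site of MYC factors, as CACGTG, on both strands of the 300 bases before each annotated transcript start (RefSeq TAIR10.1). The upstream window of ORA59 holds both motifs, which are in capitals and do not overlap, at chr1:1882607-1882906 on the plus strand.
ORA59: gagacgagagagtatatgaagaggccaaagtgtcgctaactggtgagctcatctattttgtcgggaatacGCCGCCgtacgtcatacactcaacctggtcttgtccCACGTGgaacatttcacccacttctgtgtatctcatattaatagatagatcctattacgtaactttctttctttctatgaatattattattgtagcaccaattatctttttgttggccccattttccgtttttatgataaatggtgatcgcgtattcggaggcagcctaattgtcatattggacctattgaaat
Its GCC box begins 230 bases and its G box 194 bases before the start. GCC boxes also stood 222 bases before PDF1.2a and 143 bases before PDF1.2b, and 620 of 27443 promoters of this length (2.26%) hold one. A G box is held by 1945 of them (7.09%).

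The 4 defensin genes carry a related stretch at this place, and the letters of the GCC box are intact in PDF1.2a and PDF1.2b. The stretches of 60 bases are aligned on the letters catg that follow the element, and a full GCC box is in capitals. They lie at chr5:17907827-17907886 on the minus strand for PDF1.2a, chr2:11088954-11089013 on the plus strand for PDF1.2b, chr5:17909778-17909837 on the minus strand for PDF1.2c and chr2:11087069-11087128 on the plus strand for PDF1.3.
PDF1.2a: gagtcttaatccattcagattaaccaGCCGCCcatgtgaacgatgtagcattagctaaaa
PDF1.2b: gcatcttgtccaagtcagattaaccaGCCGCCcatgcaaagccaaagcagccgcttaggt
PDF1.2c: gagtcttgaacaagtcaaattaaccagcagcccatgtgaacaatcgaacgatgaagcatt
PDF1.3: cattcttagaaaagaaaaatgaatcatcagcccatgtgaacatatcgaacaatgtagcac
Counted from 1 at the first base of the GCC box, the same place reads C3A in PDF1.2c, and G1T and C3A in PDF1.3. In 1000 bases before the start, a GCC box was also found 639 bases before PR3 and 388 bases before PR4, while ERF1, PDF1.2c and PDF1.3 had none. In that longer window 2316 of 27443 promoters (8.44%) hold a GCC box and 14.8% a G box. A match describes letters and not a bound site.

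**Figure D1:**
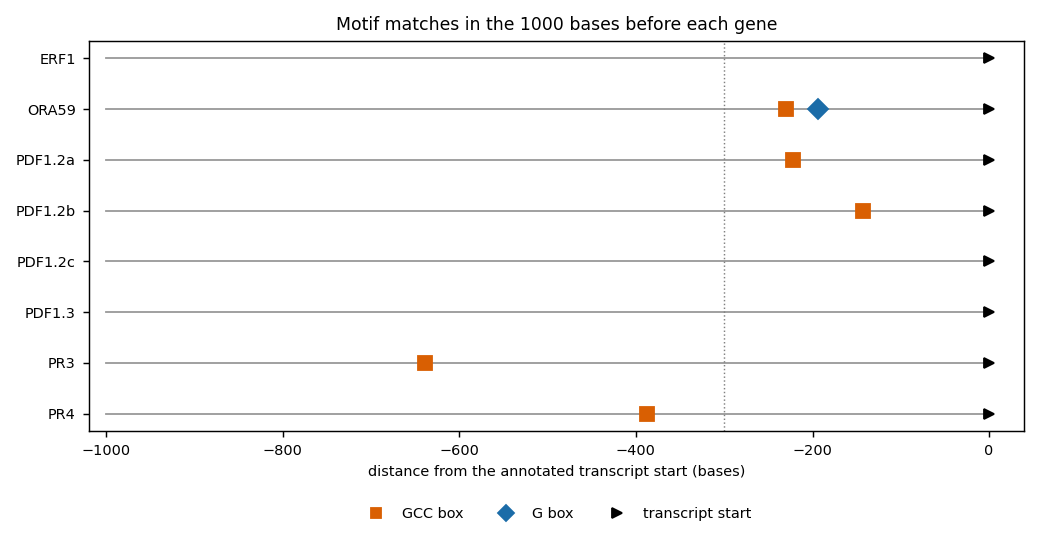
Positions of GCC box (squares) and G box (diamonds) matches on either strand, as distance in bases from the annotated transcript start (triangles), for the 1000 bases before each of the 8 genes. The dotted line marks the 300-base window. ORA59, PDF1.2a and PDF1.2b have a GCC box inside it, and PR3 and PR4 have one further out.

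Library totals ran from 18081553 to 31454984 counts, and 20986 genes, including all 8, passed the filter on low counts. PDF1.2b and PDF1.2c passed it through the JA WT libraries, because none of their mock WT values and only 2 of their mock lhp1 values reached its limit of 0.402 CPM, the count scaled to a common library size. The targeted gene LHP1 ran from 13.9 to 20.7 CPM in mock WT and from 8.33 to 10.2 CPM in mock lhp1, and the jasmonate marker JAZ10 at 2.56 to 3.14 CPM in mock WT and 100 to 106 CPM in JA WT. On the first principal component (60.6% of the variance) mock WT replicate 2 was unlike the rest of its group. It lay at 29.2, the others at −9.44 and −11.7, JA WT from −60.7 to −57.9 and mock lhp1 from 55.3 to 58.1. By the chi-square per degree of freedom between replicate counts, mock WT replicate 1 stood further out. It gave 37.9 against replicate 2 and 26.2 against replicate 3, while replicates 2 and 3 gave 20.8. No library was left out of the main fit. Results for the 8 genes and the list counts are also given without mock WT replicate 2. CPM values are scaled with TMM factors, changes are log2 fold changes with an approximate SE from edgeR, and a gene was called at an adjusted p below 0.05.

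**Figure D2:**
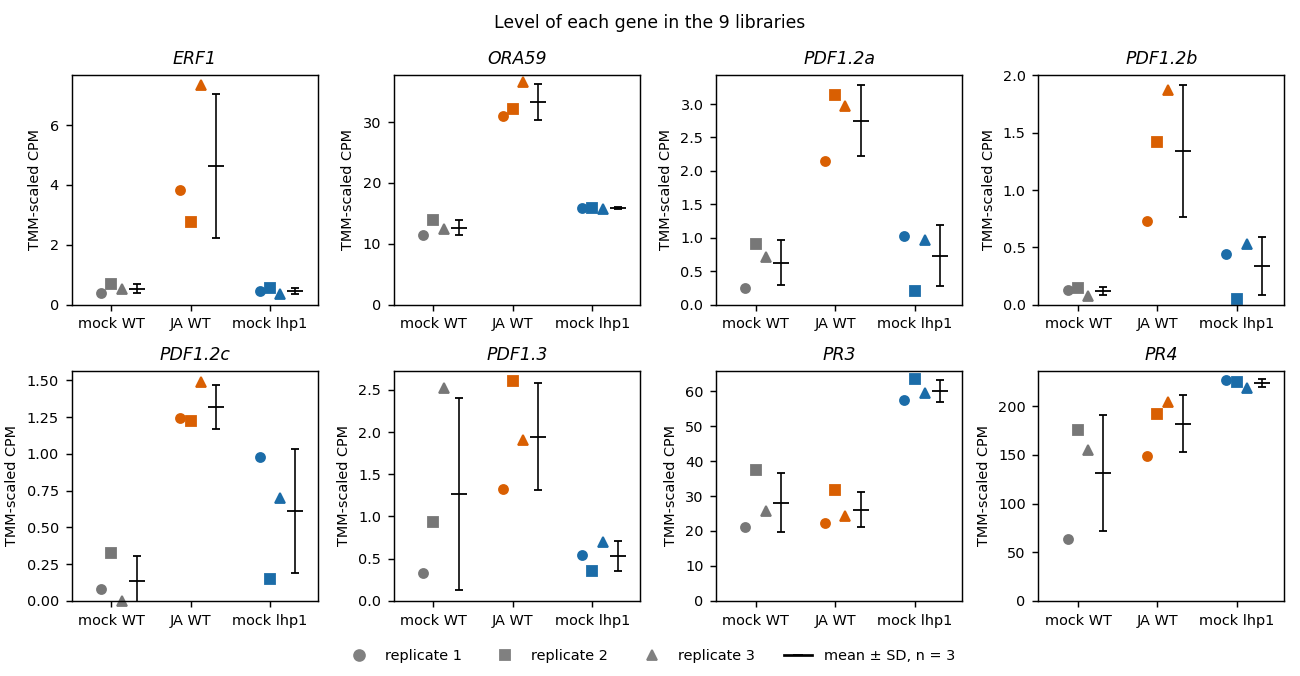
TMM-scaled CPM of each of the 8 genes in the 9 libraries (points, by replicate) with mean ± SD (n = 3 per group), on a linear axis from 0. ERF1, ORA59, PDF1.2a, PDF1.2b and PDF1.2c are higher in every JA WT library than in every mock WT library, and PR3 and PR4 are highest in mock lhp1.

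After 3 h of jasmonate, 5 of the 8 genes were higher and none was lower. Both transcription factor genes and the PDF1.2 genes rose, while PDF1.3, PR3 and PR4 did not pass the test. Over all 20986 genes tested, 15.7% were called, 8.62% higher and 7.07% lower. The JA WT and mock WT values did not overlap for the same 5 genes, as for 30.1% of all genes tested. The median log2 fold change of the 8 genes was 1.75, against 0.00 over all genes tested. The same number, 5, was called without mock WT replicate 2. PDF1.2b and PDF1.2c passed the low-count filter only through their JA WT values. Their part in these counts and in the median is therefore not independent support.

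ERF1 (AT3G23240; chr3:8295617-8296604, plus strand, a single exon) encodes an activator of the branch. It had 9, 19 and 14 counts in mock WT and 89, 56 and 212 in JA WT, which is 0.377, 0.686 and 0.528 CPM against 3.82, 2.75 and 7.34 CPM. Every JA WT library lay above every mock WT library, and JA WT replicate 3 was the highest. The log2 fold change was 3.12 ± 0.39 (95% interval 2.26 to 3.98; edgeR adjusted p = 0.000214), 8.68-fold, and ranked 130 of 20986. Without mock WT replicate 2 it was 3.35.

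ORA59 (AT1G06160; chr1:1882907-1883992, plus strand, a single exon) encodes an activator required for the response of PDF1.2 to jasmonate and ethylene together. It was the more abundant of the pair, at 11.5, 13.9 and 12.4 CPM in mock WT and 31.0, 32.2 and 36.6 CPM in JA WT. The groups did not overlap, and the spread within each was small beside the gap. The log2 fold change was 1.40 ± 0.09 (95% interval 1.19 to 1.60; edgeR adjusted p = 1.15e-06), 2.63-fold, and 1.47 without mock WT replicate 2. ERF1 had the larger fold change and ORA59 the larger level in all groups, at 33.2 ± 2.94 against 4.63 ± 2.4 CPM in JA WT (mean ± SD, n = 3).

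**Figure D3:**
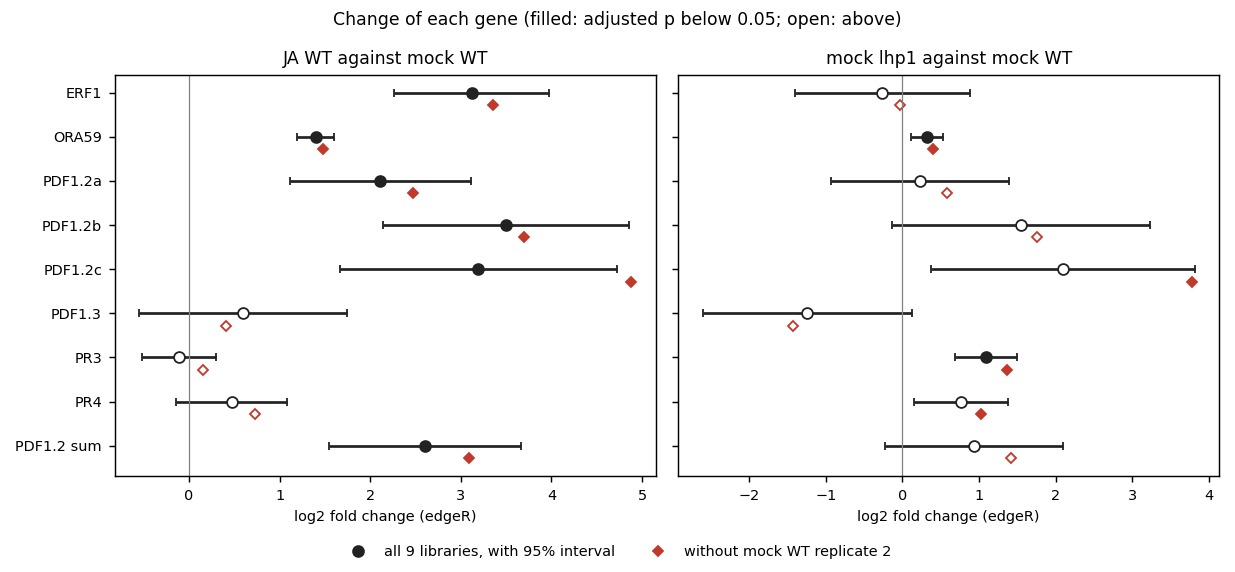
Log2 fold changes from edgeR for the 8 genes and the summed PDF1.2 genes, JA WT against mock WT (left) and mock lhp1 against mock WT (right). Circles with 95% intervals use all 9 libraries, diamonds leave out mock WT replicate 2, and filled symbols have an adjusted p below 0.05. PDF1.2c without that library is fitted against 2 counts, so its position depends on the model.

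The 4 defensin genes lie in 2 tandem pairs, with 1121 bases between PDF1.3 and PDF1.2b on chromosome 2 and 1211 bases between PDF1.2a and PDF1.2c on chromosome 5. Their coding sequences, 243 bases each, are 91.4% to 94.7% identical. No stretch of 75 bases of a transcript occurs unchanged in another of the 4, but with up to 2 mismatches 6.53% to 18.1% of such stretches do. Of stretches of 50 bases 0.566% to 5.0% occur unchanged, and 26.3% to 36.4% with up to 2 mismatches. With up to 2 mismatches 0.96% to 2.67% of stretches of 100 bases do. The labels give neither read length nor the treatment of reads with several matches. Values of single defensin genes are therefore uncertain, and sums are given as well.

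PDF1.2a (AT5G44420; chr5:17906968-17907638) had 6, 25 and 19 counts in mock WT and 50, 64 and 86 in JA WT. In CPM these were 0.251, 0.903 and 0.717 against 2.14, 3.14 and 2.98, with no overlap. It rose by 2.11 ± 0.45 (edgeR adjusted p = 0.00849), 4.32-fold, and by 2.47 without mock WT replicate 2.

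PDF1.2b (AT2G26020; chr2:11089123-11089805) went from 3, 4 and 2 counts to 17, 29 and 54 counts, or from 0.126, 0.144 and 0.0754 to 0.729, 1.42 and 1.87 CPM. All JA WT values were above all mock WT values. The rise was 3.49 ± 0.62 (95% interval 2.14 to 4.85; edgeR adjusted p = 0.00244), and 3.70 without mock WT replicate 2. It ranked 102 of 20986, ahead of the other 7 genes, on 9 mock WT counts in all. Because the gene passed the low-count filter only through JA WT, its call, rank and lack of overlap are not independent support.

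PDF1.2c (AT5G44430; chr5:17908850-17909507) had 2, 9 and 0 counts in mock WT and 29, 25 and 43 in JA WT. The JA WT libraries were alike at 1.24, 1.23 and 1.49 CPM and lay above all of mock WT, where the 0 in replicate 3 allows up to 0.113 CPM (3 counts, counting error only). The rise was 3.19 ± 0.70 (95% interval 1.66 to 4.73; edgeR adjusted p = 0.00918). This gene too passed the low-count filter only through JA WT, so its call and lack of overlap are not independent support. Without mock WT replicate 2 there were 2 counts left in mock WT, and the ratio of summed levels was 33.7. Its exact 95% counting interval, 9.07 to 282, leaves out the spread between libraries.

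PDF1.3 (AT2G26010; chr2:11087280-11088001) did not pass the test. It had 8, 26 and 67 counts in mock WT and 31, 53 and 55 in JA WT, which is 0.335, 0.939 and 2.53 CPM against 1.33, 2.6 and 1.90 CPM. The groups overlapped because mock WT replicate 3 was as high as the JA WT libraries. The log2 fold change was 0.59 ± 0.52 (95% interval −0.55 to 1.74; edgeR adjusted p = 0.502). In the 9 fits that left out a library it ran from 0.15 (without mock WT replicate 1) to 1.55 (without mock WT replicate 3). It was 0.40 without mock WT replicate 2. Of these fits, only the fit without mock WT replicate 3, the highest mock WT library for this gene, passed the test (edgeR adjusted p = 0.0357).

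Summed over the genes PDF1.2a to PDF1.2c, the counts were 11, 38 and 21 in mock WT and 96, 118 and 183 in JA WT. The sum rose by 2.6 ± 0.48 (95% interval 1.55 to 3.66; edgeR adjusted p = 0.00327), 6.08-fold, and by 3.09 without mock WT replicate 2. With PDF1.3 included, 19, 64 and 88 counts stood against 127, 171 and 238, a rise of 1.76 ± 0.45 (edgeR adjusted p = 0.0218) that was not called without JA WT replicate 2 (edgeR adjusted p = 0.0763) or JA WT replicate 3 (edgeR adjusted p = 0.0722).

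PDF1.3 held 42.1%, 40.6% and 76.1% of the 4-gene counts in mock WT and 24.4%, 31.0% and 23.1% in JA WT. Its share was lower in every JA WT library than in every mock WT library, at 26.2 ± 4.23% against 53.0 ± 20.1% (exact permutation test, two-sided, p = 0.1, the smallest that 3 against 3 libraries can give). In mock lhp1 the shares were 18.0%, 46.7% and 24.2%, the second of them from 15 counts (Wilson 95% interval 24.8% to 69.9%, counting error only).

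**Figure D4:**
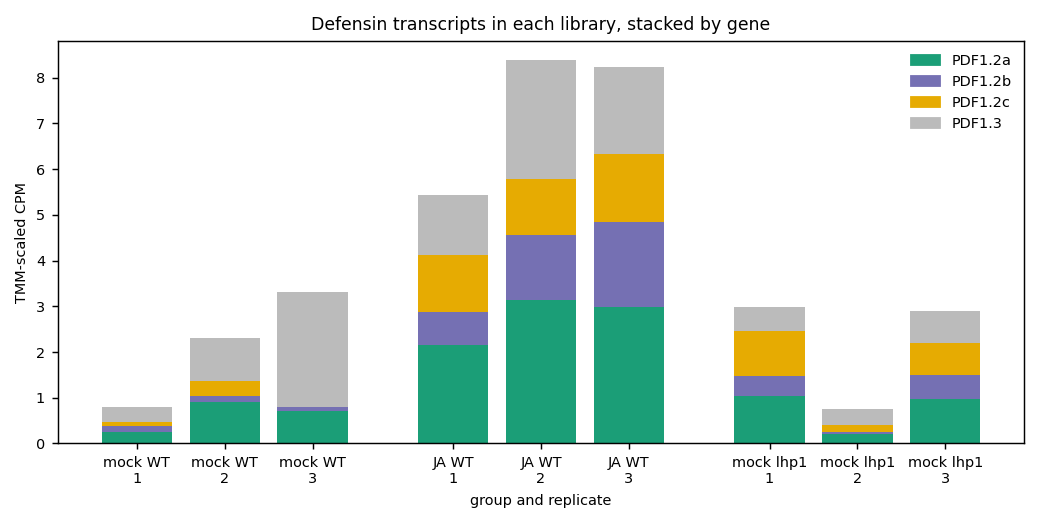
TMM-scaled CPM of PDF1.2a, PDF1.2b, PDF1.2c and PDF1.3 stacked in each of the 9 libraries, with the axis from 0. The stacks reach 5.44 to 8.39 CPM in JA WT and at most 3.32 CPM in the other libraries, and most of mock WT replicate 3 is PDF1.3.

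The pathogenesis-related genes were already abundant in mock WT and did not pass the test after jasmonate. PR3 (AT3G12500; chr3:3962136-3963984, minus strand) stood at 21.1, 37.5 and 25.7 CPM in mock WT and 22.3, 31.7 and 24.3 CPM in JA WT. The groups overlapped almost entirely, and the log2 fold change of −0.11 ± 0.19 (95% interval −0.52 to 0.30; edgeR adjusted p = 0.747) turned to 0.15 without mock WT replicate 2. PR4 (AT3G04720; chr3:1285425-1286760, minus strand) stood at 63.5, 175 and 155 CPM in mock WT and 149, 192 and 204 CPM in JA WT. Mock WT replicate 1 was far below the rest of its group, and the groups overlapped through the other libraries. The log2 fold change of PR4 was 0.47 ± 0.28 (95% interval −0.14 to 1.08; edgeR adjusted p = 0.299), 0.12 without mock WT replicate 1 and 0.73 without mock WT replicate 2.

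In lhp1, ORA59 and PR3 were called higher and none of the 8 genes was called lower. Over all genes tested, 25.5% were called, 11.1% higher and 14.4% lower. With the mock WT group shared between the comparisons, their values are given side by side. The median of the 8 genes was 0.55, against 0.00 over all genes. Without mock WT replicate 2, PR4 and PDF1.2c were called as well, which made 4.

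ERF1 had 9, 11 and 8 counts in mock lhp1, or 0.441, 0.555 and 0.352 CPM, within the range of mock WT apart from the lowest library. Its log2 fold change was −0.26 ± 0.52 (95% interval −1.40 to 0.88; edgeR adjusted p = 0.747), an interval wide enough to hold a fall or a rise. ORA59 was at 15.9, 16 and 15.7 CPM, all above the mock WT maximum of 13.9 CPM. It was 0.32 ± 0.09 higher (95% interval 0.12 to 0.53; edgeR adjusted p = 0.0270), 1.25-fold, and 0.40 higher without mock WT replicate 2. The call was lost without mock WT replicate 1 or 3 or any of the mock lhp1 libraries, with edgeR adjusted p between 0.0668 and 0.0785.

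PR3 had the lowest adjusted p of the 8 genes in lhp1. It was at 57.4, 63.6 and 59.4 CPM in mock lhp1, above every library of the other groups. The rise was 1.09 ± 0.18 (95% interval 0.69 to 1.5; edgeR adjusted p = 0.00199), 2.14-fold, and 1.36 without mock WT replicate 2, the mock WT library nearest to mock lhp1. An antisense gene, AT3G12502, overlaps PR3 and had 0 to 9 counts per library, against 503 to 1351 of PR3. The labels do not say whether counting used the strand.

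PR4 was at 227, 225 and 219 CPM in mock lhp1, again above every other library. It was 0.77 ± 0.28 higher (95% interval 0.16 to 1.38; edgeR adjusted p = 0.0648), which missed the threshold, and 1.03 higher without mock WT replicate 2 (edgeR adjusted p = 0.0131). Without mock WT replicate 1, its lowest library, it was 0.44 higher (edgeR adjusted p = 0.0203). Non-overlapping groups were common, at 44.6% of all genes tested.

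Organ markers moved in the same libraries. All 4 shoot photosynthesis markers were lower in lhp1, with summed levels of 14260 to 14970 CPM against 25178 to 39095 CPM in mock WT. Of 5 root markers 3 were higher, with sums of 129 to 155 against 75.1 to 122 CPM, and of 4 tested floral markers 2 were higher, with sums of 205 to 208 CPM against 28.3 to 122 CPM in mock WT, replicate 2 being the highest. Leaving out that library, 4 of 4 floral and 4 of 5 root markers were higher, and the 4 shoot markers were again lower. Of the root calls with all libraries, COBL9 was kept in 7, EXPA18 in 2 and CASP1 in 2 of the 9 fits that left out a library. The shoot calls and the floral calls (SEP3 and AG) were kept in all 9. Over all genes tested, 11.1% were called higher in lhp1 and 14.4% lower. In JA WT the sums were 33229 to 34861 CPM for shoot, 91.0 to 94.8 CPM for root and 22.4 to 27.1 CPM for floral markers, and no shoot or root marker was called. Of the 4 tested floral markers AG was lower in JA WT (−2.78 ± 0.72, edgeR adjusted p = 0.0232), by less without mock WT replicate 2 (−1.37, edgeR adjusted p = 0.00570), and the call was lost when any 1 of the JA WT libraries was left out. The floral marker AP1 was at 0 in JA WT and at most 0.352 CPM elsewhere. Their part in the PR3, PR4 and ORA59 results was not tested.

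The defensin genes were uneven among the mock lhp1 libraries, with replicate 2 low for all 4. PDF1.2a was at 1.03, 0.202 and 0.967 CPM, PDF1.2b at 0.441, 0.0505 and 0.528 CPM and PDF1.2c at 0.981, 0.151 and 0.704 CPM. Each overlapped mock WT. Their log2 fold changes were 0.22 ± 0.53, 1.55 ± 0.77 and 2.1 ± 0.78 (edgeR adjusted p = 0.788, 0.162 and 0.0713).

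PDF1.2c was called in lhp1 under some settings: with total-count scaling, with DESeq2, without mock WT replicate 2 and without mock lhp1 replicate 2. Without mock WT replicate 2, 39 counts in mock lhp1 stood against 2 in mock WT, a ratio of 15.6. Its exact 95% counting interval, 4.04 to 133, leaves out the spread between libraries, where mock lhp1 had 20, 3 and 16 counts. The log2 fold change of the PDF1.2 sum was 0.93 ± 0.53 (edgeR adjusted p = 0.220), and leaving out mock lhp1 replicate 2 gave 1.38 (edgeR adjusted p = 0.0363). PDF1.3 was at 0.539, 0.353 and 0.704 CPM, with a log2 fold change of −1.24 ± 0.62 (95% interval −2.61 to 0.12; edgeR adjusted p = 0.166), called without mock WT replicate 1 (−1.67; edgeR adjusted p = 0.0303). For the 4 defensins together the difference was 0.05 ± 0.50 (edgeR adjusted p = 0.959).

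JA WT and mock lhp1 differ in both genotype and treatment. Between them 5 of the 8 genes were higher in JA WT and PR3 was lower, where 45.4% of all genes tested were called, 25.1% higher and 20.3% lower. ERF1 was higher in JA WT by 3.38 ± 0.42, ORA59 by 1.07 ± 0.09, PDF1.2a by 1.89 ± 0.46, PDF1.2b by 1.95 ± 0.53 and PDF1.3 by 1.84 ± 0.60 (edgeR adjusted p at most 0.0278). The PDF1.3 call was lost in 5 of the fits that left out 1 library and the PDF1.2b call without JA WT replicate 3. PDF1.2b and PDF1.2c had passed the low-count filter through JA WT, so higher values there are not independent support. PDF1.2c (1.1 ± 0.57, edgeR adjusted p = 0.137) and PR4 (−0.30 ± 0.28, edgeR adjusted p = 0.403) did not pass although their groups did not overlap, as was the case for 60.2% of all genes. PR3 was lower by −1.21 ± 0.18 (edgeR adjusted p = 0.00038).

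Per kilobase of transcript, PR4 was the most abundant of the 8 in every group, at 116 ± 52.6, 160 ± 25.8 and 197 ± 3.70 CPM per kilobase in mock WT, JA WT and mock lhp1 (mean ± SD, n = 3). In mock WT the order went on with PR3 (20.5 ± 6.17), ORA59 (11.6 ± 1.13), PDF1.3 (2.04 ± 1.83), PDF1.2a (1.08 ± 0.58), ERF1 (0.537 ± 0.157), PDF1.2c (0.249 ± 0.308) and PDF1.2b (0.189 ± 0.0586). From PDF1.3 downward the neighbours lay within their spread. In JA WT ORA59 (30.6 ± 2.70) stood above PR3 (19 ± 3.63), followed by PDF1.2a (4.76 ± 0.923), ERF1 (4.69 ± 2.43), PDF1.3 (3.14 ± 1.03), PDF1.2c (2.41 ± 0.268) and PDF1.2b (2.2 ± 0.944), again with neighbours within their spread from PDF1.2a downward. In mock lhp1 PR3 (43.8 ± 2.3) stood above ORA59 (14.6 ± 0.155), followed by PDF1.2a (1.27 ± 0.796), PDF1.2c (1.12 ± 0.77), PDF1.3 (0.858 ± 0.283), PDF1.2b (0.558 ± 0.417) and ERF1 (0.455 ± 0.103), with neighbours within their spread from PDF1.2a downward.

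Across the 9 libraries the genes whose log2 CPM was most like that of ERF1 were MYB108 (Pearson r = 0.985), AT5G18470 (0.982) and AT2G32150 (0.981), among 19365 genes averaging 1 CPM or more. MYB108 encodes a MYB transcription factor, and it was at 0.963 to 1.81 CPM in mock WT, 3.53 to 5.30 CPM in JA WT and 0.879 to 1.21 CPM in mock lhp1. For ORA59 they were the glutathione transferase gene GSTF9 (0.998), the jacalin-lectin gene JAL34 (0.996) and AT5G02170 (0.994). GSTF9 was at 713 to 781, 1475 to 1593 and 882 to 908 CPM in the same order of groups. ERF1 and ORA59 correlated with each other at 0.946. These values describe libraries that share 3 group means.

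Other genes around the branch were taken from lists, whose counts stand against 8.62% of all tested genes called higher and 7.07% called lower after jasmonate. Of the 6 tested ERF group IXc activators, which include ERF1 and ORA59, 3 rose after jasmonate (median 1.13). The third was ERF15, from 9.67, 12 and 11.7 to 25.6, 25.3 and 31.8 CPM (1.31 ± 0.11, edgeR adjusted p = 1.07e-05). The next genes upstream of ERF1 on chromosome 3 belong to the same group: ESE1 had no counts in any library, and TDR1 did not pass (−0.17, edgeR adjusted p = 0.875).

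Of 8 ERF group VIIIa repressors, whose products bind the same element and switch genes off, 3 rose (median 0.01). ERF11 rose by 1.66 ± 0.17 and ERF4 by 1.25 ± 0.10, and ERF8 rose by 0.70 ± 0.19, a call lost without mock WT replicate 2 or 3 or JA WT replicate 1 or 3. Among 14 tested co-activators and repressors of the branch 4 rose (median 0.10). They were GRX480 (4.45 ± 0.38), a glutaredoxin gene whose product represses ORA59 and PDF1.2 promoters, JAZ1 (3.42 ± 0.11), MYC2 (2.15 ± 0.12) and WRKY33 (0.70 ± 0.11), a factor needed for resistance to Botrytis. GRX480 passed the low-count filter only through JA WT, with at most 0.181 CPM in mock WT and 0.308 CPM in mock lhp1. Its rise and its place in this count are therefore not independent support. Both activators and repressors of the branch were among the genes that rose.

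Of 12 tested ethylene synthesis genes 1 rose and 3 fell after jasmonate (median −0.51), beside 8.62% higher and 7.07% lower over all genes. The single rise is near that background share. ACO1, encoding an ACC oxidase, fell from 50.7, 53.9 and 35.3 to 18.4, 22.6 and 18.6 CPM (−1.23 ± 0.16, edgeR adjusted p = 0.000265). ACO4 rose by 0.66 ± 0.16, and ACS5 (−1.39 ± 0.39) and AT1G12010 (−0.92 ± 0.27) fell, with the calls kept in 6, 3 and 1 of the 9 fits that left out a library. In the fit that left out mock WT replicate 2, 1 gene rose and 1 fell.

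Of 12 ethylene perception and signalling genes 4 rose, by little (median 0.17). They were the kinase gene CTR1 (0.56 ± 0.08), the receptor gene ERS1 (0.44 ± 0.08), EBF1 (0.38 ± 0.09), whose product removes EIN3, and EIN3 itself (0.22 ± 0.06). EIN3 was not called with total-count scaling (edgeR adjusted p = 0.264), without mock WT replicate 3 or without any JA WT library, and EBF1 was not called without JA WT replicate 1.

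Other outputs of the branch and its gene families did not follow 1 direction. Of 3 tested outputs 2 rose (median 2.79): AACT1, encoding an agmatine coumaroyltransferase, from 10.3, 9.90 and 8.75 to 61.1, 66.3 and 72.7 CPM (2.79 ± 0.18, edgeR adjusted p = 1.26e-06), and AT3G23550, encoding a MATE efflux protein, from 2.39, 2.85 and 2.04 to 35.3, 39.5 and 52.9 CPM (4.13 ± 0.17, edgeR adjusted p = 3.42e-08). The thionin gene THI2.1 was not tested. Its 21 JA WT counts stood against none in the mock WT group. That is 7.53-fold higher when mock WT is set to 3 counts in all, with the error of the JA WT counts left aside. GLIP1, the other untested output, had 0 counts in JA WT, 2 in mock WT and 7 in mock lhp1.

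Of 7 other plant defensins none rose and 2 fell (median −0.15), PDF2.1 (−1.58 ± 0.47), a call kept in 1 of the 9 fits that left out a library, and PDF2.3 (−0.29 ± 0.07). Of 11 family 19 chitinases other than PR3, AT2G43610 (0.70 ± 0.10) and AT3G47540 (0.66 ± 0.13) rose and AT1G02360 (−1.57 ± 0.15) and EP3 (−0.69 ± 0.11) fell (median −0.11). Leaving out mock WT replicate 2 gave 4 higher for the IXc activators, 2 higher for the VIIIa repressors and 1 lower for the other defensins, and the same counts as above for the perception, co-regulator, chitinase and output lists.

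**Figure D5:**
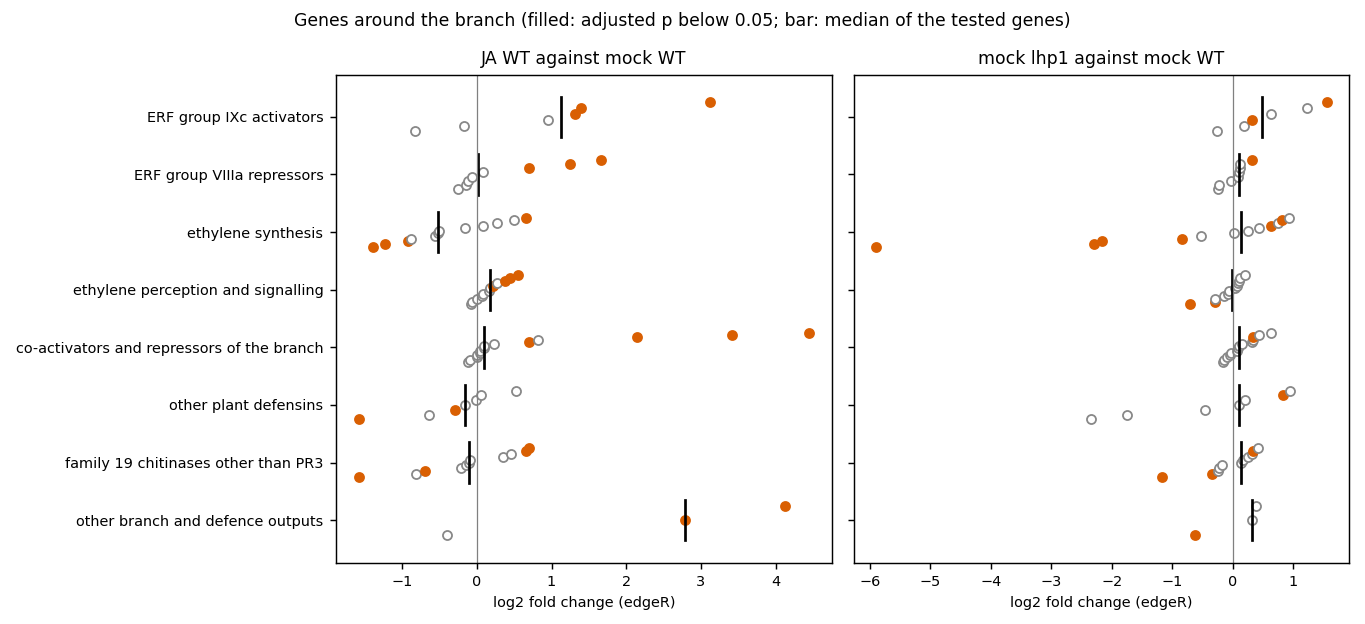
Log2 fold change (edgeR) of every tested gene in 8 lists around the branch, JA WT against mock WT (left) and mock lhp1 against mock WT (right). Filled points have an adjusted p below 0.05 and the vertical bars are list medians. After jasmonate the medians run from −0.51 for ethylene synthesis to 2.79 for other branch outputs, and in lhp1 they stay between −0.01 and 0.48.

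In lhp1, 2 of the 12 tested ethylene synthesis genes were higher and 4 lower (median 0.14), beside 11.1% higher and 14.4% lower over all genes tested. The count of higher genes is near that background share. The ACC synthase gene ACS4 had 87, 33 and 48 counts in mock WT and 1, 0 and 1 in mock lhp1 (edgeR adjusted p = 0.000389). The ratio between mock WT and mock lhp1 was 67.7 (exact 95% counting interval 18.5 to 564, counting error only). ACO4 was at 114, 110 and 116 CPM in mock lhp1, below every mock WT library, of which replicate 1 was highest at 669 CPM (−2.17 ± 0.17, edgeR adjusted p = 0.000109), the opposite of its direction after jasmonate. ACS8 fell (−2.29 ± 0.58, lost without mock lhp1 replicate 1 or 3), and ACS7 (0.81 ± 0.16) and ACO1 (0.63 ± 0.15, lost without mock lhp1 replicate 2) rose.

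Of the ethylene perception and signalling genes 2 of 12 were lower in lhp1 (median −0.01), a share near the 14.4% of all genes called lower. They were EIL1, from 103, 80.1 and 95.9 to 59.4, 54.1 and 58.1 CPM (−0.70 ± 0.09, edgeR adjusted p = 0.000424), and CTR1 (−0.30 ± 0.08, lost without mock WT replicate 3 or mock lhp1 replicate 1, and with total-count scaling, where CTR1 was at −0.15 with edgeR adjusted p = 0.143). Of the 6 ERF group IXc activators ORA59 and TDR1 were higher (median 0.48). TDR1 rose by 1.56 ± 0.45 and was called in 4 of the 9 fits that left out a library. It had 6, 9 and 10 counts in mock WT and 19, 17 and 24 in mock lhp1. Because TDR1 passed the low-count filter only through mock lhp1, its call and its place in this count are not independent support. In the other lists PDF2.5 (0.83 ± 0.15) was higher and the chitinase gene AT2G43590 (−1.17 ± 0.19) lower. ERF4 (0.32), WRKY33 (0.34), AT2G43610 (0.34), EP3 (−0.34) and AACT1 (−0.62) were called too, each in 5 or fewer of those 9 fits, and EP3 and AACT1 were not called with total-count scaling (edgeR adjusted p = 0.174 and 0.0916). Leaving out mock WT replicate 2, the higher and lower counts in lhp1 were 4 and 4 for ethylene synthesis, 0 and 2 for perception, 3 and 0 for the IXc activators, 0 and 0 for the VIIIa repressors, 2 and 0 for co-regulators, 2 and 1 for other defensins, 4 and 1 for chitinases and 1 and 0 for other outputs. Over the 8 genes, the lists and the markers, 22 of 30 calls after jasmonate and 14 of 27 in lhp1 were kept in all 9.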

How the data were processed

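Per the labels' protocols, RNA was extracted with an RNeasy kit, selected for poly(A), made into NEBNext libraries and run on a NovaSeq. The dose, written as 5 µm in the labels, is read as micromolar. The authors deposited whole-number read counts per gene, not normalized, per the values. Per the submitters' processing notes TopHat, HTSeq and edgeR were used with the build TAIR10, no versions given. The files held 3 further columns that match no labelled sample and were not used. Names and sequences came from RefSeq TAIR10.1 (32835 of 33602 identifiers matched).

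All 9 libraries, totals 18081553 to 31454984, entered 1 edgeR 4.0.16 quasi-likelihood model (R 4.3.3) with TMM factors, filterByExpr and a mean per group, tested two-sided with Benjamini-Hochberg adjustment over 20986 genes. SE is the size of the change over the square root of F. Defensin sums replaced the single rows in separate fits. Checks used simulated counts. Alternatives were median-ratio and total-count scaling, no filter, DESeq2 1.42.0, limma 3.58.1 voom, only the compared groups, a replicate block, and leaving out each library. Named were all 8 genes, up to 4 called genes with the largest change per list and comparison, and LHP1 and JAZ10 as checks. The 3 genes most correlated with each of ERF1 and ORA59 were named as well. ESE1, TDR1 after jasmonate, THI2.1, GLIP1, AP1 and the further called genes in lhp1 were named after their values were seen. The values of 1 called list gene in lhp1 are not reported here. The genes, lists and tests were chosen with earlier results of these data known. Within groups, libraries differed beyond counting noise (chi-square per degree of freedom 2.47 to 37.9). Figures used matplotlib 3.10.9 in Python 3.11.15.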

Additional observations from a re-analysis of the deposited data

How the results depend on the processing

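The jasmonate rises of ERF1, ORA59, PDF1.2a, PDF1.2b and PDF1.2c and the lhp1 rise of PR3 kept their direction and call under every alternative run. For PDF1.2b and PDF1.2c this is not independent support, because both passed the low-count filter of the main fit only through JA WT. Total-count scaling shifted the median of all genes by −0.12 after jasmonate, 0.15 in lhp1 and −0.24 for JA WT against mock lhp1. It called 1217 genes higher and 3034 lower after jasmonate (1809 and 1483 with TMM), 5045 and 1878 in lhp1 (2321 and 3023), and 2515 and 9229 between JA WT and mock lhp1 (5270 and 4259). In lhp1 it called 4 of the 8 genes and 27 list genes higher, where TMM called 2 and 8, and DESeq2 and the replicate block called 13 list genes each. With only the compared groups, 934 genes were lower after jasmonate, and 2 of the 8 were lower in JA WT than in mock lhp1. That setting and voom each called 4 list genes lower after jasmonate, against 7. PR4 in lhp1 was called with total counts (0.90), no filter (0.76), voom (0.90) and the replicate block (0.87). The labels give replicate numbers but no shared batch. Correlations of same-numbered libraries between groups, on each gene's log2 CPM minus its group mean, ran from −0.0766 to 0.215, with 2 of 9 over 0.1. These 2 were between mock WT and JA WT, at 0.215 for replicate 1 and 0.133 for replicate 3. Weak pairing in that comparison is therefore possible. With the replicate block the 5 jasmonate calls were made again (ERF1 3.05).

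Leaving out each library in turn, the 4-defensin sum rose by 1.37 to 2.2 after jasmonate and differed by −0.324 to 0.499 in lhp1, where it turned negative without mock WT replicate 1 (−0.324) and mock lhp1 replicates 1 (−0.212) and 3 (−0.199). PDF1.2a in lhp1 turned in the same fits (−0.123, −0.0743 and −0.0305; range −0.123 to 0.652), and PR3 after jasmonate without mock WT replicate 2 (0.152; range −0.297 to 0.152). The PDF1.2 sum in lhp1 ranged from 0.584 to 1.42. In lhp1 1 to 4 of the 8 genes were higher and 0 to 1 lower, 2 to 16 list genes were higher, and 1108 to 3295 of all genes were higher. List genes lower after jasmonate numbered 4 to 8. Between JA WT and mock lhp1 3 to 5 of the 8 were higher and 1 to 2 lower. The causes were not tested. Single defensin genes rest on 0 to 86 counts per library, the 4-defensin sum on 15 to 238 and ERF1 on 8 to 212. This limits their precision.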
